A study of Mus musculus with 12 samples.

Results

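Receptors for neuromodulators were examined as a family in mice with a gene trap in the histone acetyltransferase gene Kat6b, which the labels call Qkf. The members were all genes whose symbol on the array platform named a receptor for serotonin (other than Htr3a), dopamine, adrenaline and noradrenaline, acetylcholine (muscarinic receptors and nicotinic subunits), histamine, adenosine, opioids, cannabinoids or prostaglandin E. They came to 51 genes with 92 probe sets, of 45101 probe sets on the array. Probe sets with more than 1 symbol were left out, and a receptor gene absent from the 51 was not assessed. The adenosine class held 1 gene, Adora3. A gene was kept for testing where a probe set had a log2 value over 4 on at least 3 of the 12 arrays, which 17 of the 51 genes did, among 11449 genes of the series. Each of the 17 is represented by its probe set of highest mean.

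There were 4 groups of 3 arrays, all from mice of strain 129/Sv. Adult mutants were Qkf gt/gt males aged 155, 112 and 99 days, and adult wild types were males aged 155, 112 and 101 days, and in both the dorsal cerebral cortex was taken. Embryonic mutants were Qkf gt/gt, and embryonic wild types were wild type, both at gestational stage E12.5, and the dorsal telencephalon, the region that forms the cortex, was taken. The embryos came from 2 parental crosses, 1 mutant and 1 wild type from the first and 2 of each from the second, and their sex is not labelled. The labels do not say whether tissue was pooled, so p-values measure the spread between these arrays.

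Neuromodulators are released by small groups of neurons that project widely and tune the excitability of the cortex rather than carrying fast point-to-point signals. Most of their receptors are coupled to G proteins. Those coupled to Gs raise cyclic AMP, those coupled to Gi lower it and often sit on nerve terminals where they restrain release, and those coupled to Gq mobilise calcium. The nicotinic receptors, and the serotonin receptor to which Htr3b contributes, are instead ion channels built of subunits. At E12.5 the dorsal telencephalon consists mainly of dividing progenitors and the first neurons.

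Kat6b itself was lower on every mutant array in both stages, with a mean log2 value of 7.11 in mutant and 9.58 in wild-type adults (adjusted p = 0.017, limma) and of 7.06 in mutant and 11.37 in wild-type embryos (adjusted p = 0.00019). Markers of the labelled tissues were present. Those of dorsal progenitors averaged 11.64 to 11.74 on the embryonic arrays against 6.37 to 6.49 on the adult ones, and those of cortical excitatory neurons 9.43 to 9.73 on adult arrays. Some arrays stood apart. Markers of choroid plexus and hem (6 of 9 past the filter) averaged 6.21 on adult mutant 3, and the remaining adults had 3.44 to 3.78. The difference between the 3 prime and 5 prime actin control probe sets, which is larger where RNA is shorter or degraded, was 1.91 on adult mutant 1 and 1.47 on adult mutant 2, while adult mutant 3 and the wild types had 1.06 to 1.13.

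Of the 34 members that did not pass the filter, none exceeded a log2 value of 4 on any array, and their highest values ran from 2.19, the lowest value on every array, to 3.85 for the serotonin receptor gene Htr5a. Nicotinic subunits made up 11 of the 34. Among these were Chrna1, Chrnb1, Chrnd, Chrne and Chrng, which build the receptor of skeletal muscle, and none of them exceeded 2.54 in any sample. Chrna2, Chrna5, Chrna6, Chrna9, Chrnb3 and Chrnb4, subunits of neuronal and sensory receptors, reached at most 3.04, the highest value of Chrna6. The 8 serotonin receptor genes were Htr1d, Htr1f, Htr2b, Htr3b, Htr4, Htr5a, Htr5b and Htr6. The others were the dopamine receptor genes Drd2, Drd3 and Drd4, the adrenergic Adra1b, the muscarinic Chrm3 and Chrm4, the histamine Hrh2 and Hrh4, the adenosine Adora3, the opioid Oprd1 and Oprm1, the cannabinoid Cnr2, and Ptger1, Ptger2 and Ptger4 for prostaglandin E.

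A value at the floor shows that the probe set gave no signal above background, not that the transcript was missing. Several members had a probe set with signal and others without. For Chrm1, for example, the second probe set did not exceed 3.94, while the first reached 9.57. Only 20 of the 92 probe sets passed, and 3 genes (Chrna4, Drd1 and Oprl1) had more than 1 that did. Just inside the filter were Chrna3, over 4 on 4 arrays, and Hrh1 and Oprk1, over it on 5 each.

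**Figure D1:**
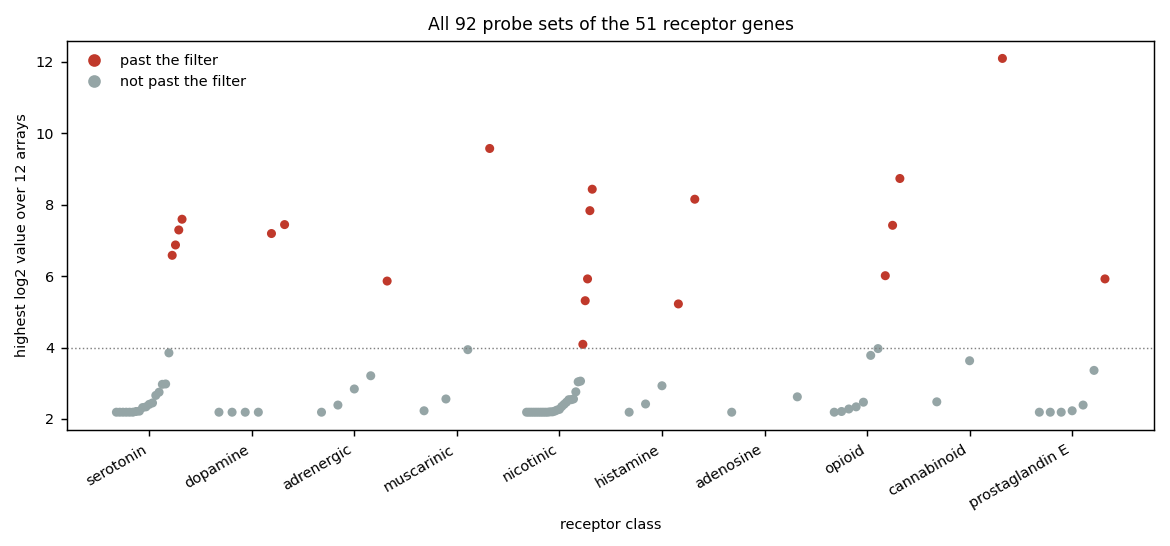
Highest log2 value over the 12 arrays (y axis) of each of the 92 probe sets, by receptor class (x axis). The 20 probe sets past the filter are red and the others grey, and the dotted line marks a log2 value of 4. The adenosine class holds 1 gene, Adora3, and neither of its 2 probe sets reached the line.

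The comparison of stages asks which receptors differ between adult cortex and the E12.5 telencephalon. It was made within mutants and within wild types, which share no array but share the estimate of the spread. In each genotype 15 of the 17 members were called higher in adults and 1 lower, by limma at an adjusted p under 0.05, and the same 15 genes were called in both. Over all genes past the filter, 39.5% were called higher and 42.2% lower in adult mutants, and 38.4% higher and 43% lower in adult wild types. These member counts are partly fixed by the filter and support nothing by themselves. Within a single stage, 7 members (Chrna4, Drd1, Hrh1, Htr1b, Htr7, Oprk1 and Ptger3) met it on the adult arrays only and Chrna3 on the embryonic arrays only. For these the filter favoured a difference. The remaining 9 met it within each stage, and 8 of them, all but Cnr1, were called higher in both genotypes. The share called among all genes that met it within each stage was not counted, so this count has no background. Some of the 9 met it only narrowly in embryos, where Hrh3 had 4.21 to 4.27, Chrm1 at most 4.36 and Htr1a at most 4.2. With no filter, over all 51 members, 18 were called higher and 1 lower in adult mutants, against 25% and 26.4% of 18193 genes. In adult wild types 17 were called higher and 0 lower by limma (1, Chrna3, at an unadjusted p under 0.05), against 24.5% and 26.8%. The median log2 difference of the 17 was 2.39 in mutants and 2.17 in wild types, but over all 51 it was 0.036 and 0.067, most members lying near the floor. For members that met the filter in 1 stage alone, p-values below come from the fit with no filter. In whole tissue, more cells of a type and more RNA per cell cannot be told apart. The array names in the labels end differently for the adult and the embryonic arrays, and that of embryonic mutant 1 differs from both. The labels do not say what the ending marks. A difference between array sets and the stage thus cannot be told apart either.

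Chrm1 had the greatest rise among the members. It encodes a Gq-coupled muscarinic receptor that is abundant on cortical pyramidal neurons. It had log2 values of 9.38, 9.37 and 9.57 in adult mutants, against 4.25, 2.98 and 4.16 in embryonic mutants, a log2 difference of 5.64 (SE 0.26, adjusted p = 2.74e-09). In adult wild types it had 9.41, 9.46 and 9.47, against 4.16, 4.36 and 4.16 in embryonic wild types, a difference of 5.22 (SE 0.26, adjusted p = 5.45e-09). The second Chrm1 probe set, below the filter, had the same order of stages, averaging 3.52 and 3.56 in adult mutants and wild types and 2.19 in both embryonic groups.

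Among dopamine receptors, Drd1 was the member with signal. Its product is Gs-coupled and raises cyclic AMP in striatal and cortical neurons. It stood at 7.43, 7.0 and 7.13 in adult mutants, against 4.07, 3.84 and 2.77 in embryonic mutants (log2 difference 3.62, adjusted p = 1.91e-05 with no filter). Adult wild types had 6.97, 7.44 and 6.72, against 4.19, 3.50 and 3.76 in embryonic wild types (3.23, adjusted p = 4.14e-05 with no filter). A second Drd1 probe set gave differences of 2.77 in mutants and 2.92 in wild types. Drd2, Drd3 and Drd4 lay at 2.19 on all 12 arrays.

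All 4 serotonin receptor genes with signal were called higher in adults, also with no filter. Htr1b, a Gi-coupled receptor found on axon terminals, had 6.35, 6.76 and 6.32 in adult mutants, against 3.26, 2.76 and 2.77 in embryonic mutants, and the difference was 3.55 (adjusted p = 2.08e-05 with no filter). In adult wild types Htr1b had 5.86, 7.29 and 6.01, against 3.40, 3.19 and 3.26 in embryonic wild types, with a difference of 3.10 (adjusted p = 5.12e-05 with no filter). Adult wild type 2, the array with the highest mean of striatal markers, was the highest of the 12, and the part of tissue makeup was not tested. Htr1a, the Gi-coupled receptor that hyperpolarises pyramidal neurons and serotonin neurons themselves, lay between 5.76 and 6.58 in adults and between 3.79 and 4.2 in embryos (2.56 in mutants and 2.17 in wild types). The Gs-coupled Htr7 lay between 5.76 and 6.87 in adults, against 3.29 to 4.46 in embryos (2.38 and 2.45). For Htr2c, a Gq-coupled receptor also known for its abundance in the choroid plexus, the stages did not overlap, at 6.19 to 7.59 in adults and 2.19 to 5.72 in embryos. Its differences of 3.11 and 2.39 had the widest error of the members (SE 0.76 each, adjusted p = 0.0027 in mutants and 0.012 in wild types).

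Both histamine receptor genes with signal were called higher in adults, also with no filter. Hrh3, the Gi-coupled receptor that restrains the release of histamine and other transmitters, had 8.15, 7.38 and 7.32 in adult mutants, against 4.23, 4.23 and 4.23 in embryonic mutants (3.39, SE 0.19, adjusted p = 1.07e-08). Adult wild types had 7.09, 6.85 and 7.15, against 4.21, 4.21 and 4.27 in embryonic wild types (2.80, adjusted p = 5.71e-08). The embryonic values hardly varied and lie just above the filter, so that the difference may understate the change. Hrh1, which acts through Gq, lay between 4.00 and 5.22 in adults, against 2.24, 2.60 and 2.60 in embryonic mutants and 2.37, 2.60 and 2.60 in embryonic wild types.

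The prostaglandin receptor gene Ptger3, whose Gi-coupled product mediates fever and restrains transmitter release, had 5.38, 4.96 and 4.73 in adult mutants, against 2.47, 2.53 and 3.30 in embryonic mutants (2.26, adjusted p = 2.93e-05 with no filter). In adult wild types it had 5.91, 5.92 and 5.92, against 3.27, 3.27 and 3.54 in embryonic wild types (2.56, adjusted p = 1.24e-05 with no filter). Of the opioid family, Oprl1, the receptor for nociceptin, rose 4.27-fold in mutants and 3.87-fold in wild types, and its second probe set past the filter gave log2 differences of 2.42 and 2.06. Oprk1, the receptor for dynorphin, was between 3.66 and 6.01 in adults, against 2.33, 2.33 and 2.33 in embryonic mutants and 2.52, 2.33 and 2.27 in embryonic wild types. Adra2c, a Gi-coupled receptor for noradrenaline, had the smallest rise of the called members in mutants (0.92, SE 0.18, adjusted p = 0.00053), and its difference was 1.48 in wild types (adjusted p = 1.12e-05). Another Adra2c probe set, below the filter, gave differences of 0.39 in mutants and -0.08 in wild types.

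Nicotinic subunits took both directions. Chrna7, which forms a calcium-permeable channel of identical subunits, rose 7.19-fold in mutants (log2 2.85) and 4.88-fold in wild types (2.29). Chrnb2, the partner of Chrna4 in the main heteromeric receptor of the brain, rose 2.52-fold in mutants and 2.16-fold in wild types. Chrna4 lay between 4.01 and 5.31 in adults, against 3.52, 3.52 and 3.42 in embryonic mutants and 3.56, 3.52 and 3.48 in embryonic wild types. Its second probe set past the filter gave differences of only -0.02 in mutants and 0.18 in wild types.

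Chrna3, best known from receptors of autonomic ganglia and of the habenula, was the 1 member that was lower in adults. It had 2.29, 2.77 and 2.77 in adult mutants, against 5.70, 3.31 and 5.92 in embryonic mutants (log2 difference -2.37, SE 0.69, adjusted p = 0.030 with no filter). Adult wild types had 2.77, 2.77 and 2.45, against 5.81, 3.29 and 4.36 in embryonic wild types (-1.82, SE 0.69, adjusted p = 0.083 with no filter). The wild-type difference thus passed only in the filtered fit, and was also lost there without any 1 of adult wild types 1, 2 and 3 or embryonic wild types 1 and 3 (adjusted p = 0.055, 0.055, 0.075, 0.12 and 0.051), and without both embryos of the first cross the difference was -1.16 (adjusted p = 0.11). Its other 2 probe sets lay between 2.19 and 2.76 on all arrays.

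Cnr1, the cannabinoid receptor of axon terminals, was high at both stages and was not called between them. It had 12.09, 12.05 and 11.52 in adult mutants, against 10.98, 11.93 and 11.31 in embryonic mutants, and 12.06, 11.90 and 11.75 in adult wild types, against 10.83, 11.96 and 11.86 in embryonic wild types. The log2 difference was 0.48 in mutants (95% interval -0.20 to 1.17, adjusted p = 0.17) and 0.36 in wild types (-0.33 to 1.04, adjusted p = 0.30). It was the 1 member of the 17 whose stages overlapped, in either genotype. The share of all genes whose stages overlapped was not counted, and the filter partly fixes this count, so it has no background.

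**Figure D2:**
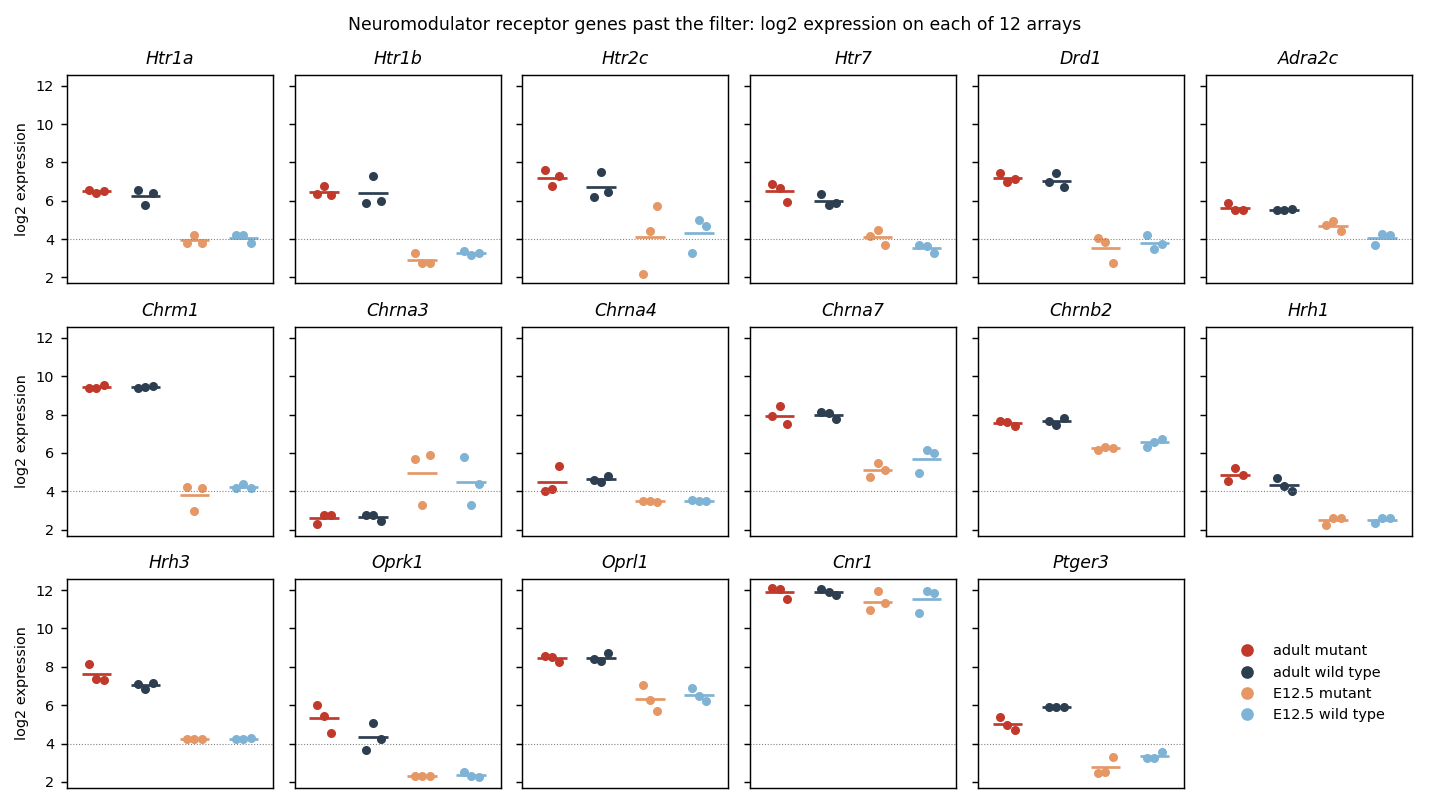
Log2 expression (y axis) on each array for the 17 members past the filter, 1 panel a gene, with the groups along the x axis from adult mutant to E12.5 wild type. Points are arrays, bars are group means (n = 3) and the dotted line is a log2 value of 4. Cnr1 overlaps between stages, and Chrna3 is higher at E12.5.

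**Figure D3:**
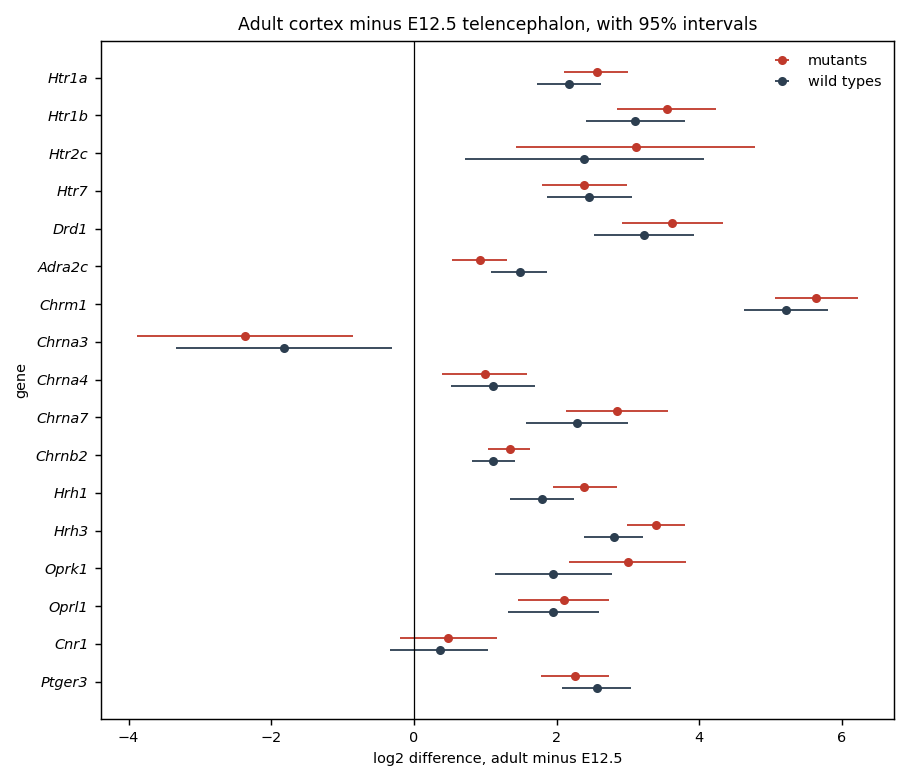
Log2 difference between adult cortex and E12.5 telencephalon (x axis) for each member (y axis), in mutants and in wild types, with 95% intervals from limma. Chrm1 stands at 5.64 and 5.22, and the interval of Cnr1 spans 0 in both genotypes.

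Promoters were read for the members with the greatest changes between stages, to show what lies before the start of receptor genes that were higher in adults and of the one that was lower. The windows run from 250 bases before to 50 bases after a start and come from RefSeq, build GRCm38.p6. The table held windows for 41 of the 51 members and 15 of the 17 past the filter, in which Chrm1 and Oprk1 had none. Shown are Drd1, at its upstream start of 2 (chr13:54055609-54055908, minus strand), Htr1b (chr9:81633783-81634082, minus strand) and Chrna3 (chr9:55026513-55026812, minus strand), in lower case 5′ to 3′ with matches to the motifs below in capitals.
Drd1: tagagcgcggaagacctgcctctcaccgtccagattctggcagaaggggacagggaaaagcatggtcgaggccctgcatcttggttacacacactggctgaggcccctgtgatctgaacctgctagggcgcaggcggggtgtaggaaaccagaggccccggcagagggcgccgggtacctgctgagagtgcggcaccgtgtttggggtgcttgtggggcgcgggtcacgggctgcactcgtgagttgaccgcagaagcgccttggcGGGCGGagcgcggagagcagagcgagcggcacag
Htr1b: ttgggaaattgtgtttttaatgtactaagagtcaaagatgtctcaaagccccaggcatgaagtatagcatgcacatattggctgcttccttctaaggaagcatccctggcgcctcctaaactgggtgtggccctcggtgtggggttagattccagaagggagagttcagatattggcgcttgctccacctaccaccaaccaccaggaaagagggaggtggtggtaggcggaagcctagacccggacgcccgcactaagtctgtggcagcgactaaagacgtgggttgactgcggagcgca
Chrna3: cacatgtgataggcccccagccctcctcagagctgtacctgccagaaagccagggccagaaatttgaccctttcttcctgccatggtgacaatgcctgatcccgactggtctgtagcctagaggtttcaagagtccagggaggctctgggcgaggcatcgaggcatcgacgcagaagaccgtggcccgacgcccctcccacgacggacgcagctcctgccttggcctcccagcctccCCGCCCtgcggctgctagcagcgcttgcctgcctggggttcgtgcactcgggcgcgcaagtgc

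On both strands, 4 motifs were searched: the cAMP response element TGACGTCA, its core TGACG, the GC box GGGCGG and the TATA box TATAAA. The core lies within the full element. A GC box was found in 12 of the 23 windows of members past the filter, against 35.7% of all 32851 windows. Drd1 and Chrna3, whose differences had opposite signs, held 1 each in the windows shown, and Htr1b held none of the 4. The full cAMP response element was in 0 of the 57 windows of all members, against 1.79% of all windows, its core in 4 of 57, against 20.8%, and the TATA box in 2 of 57, against 13.6%. The ratio of observed to expected CpG dinucleotides, which is high in CpG islands, had a median of 0.52 in members past the filter and 0.43 in the other members, against 0.38 in all windows. It ran from 0.10 for an Oprl1 window to 1.02 for Hrh3 among members past the filter. Such matches are descriptions of letters and not of binding.

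The comparison of mutants with wild types asks whether receptor genes depend on Kat6b in the adult cortex. In adult mutants 0 of 17 members passed at an adjusted p under 0.05 by limma, where 0.0524% of all genes did. At an unadjusted p under 0.05 there were 4 members (Ptger3, Hrh3, Hrh1 and Oprk1), against 4.54% of all genes. The median log2 difference over the members was 0.08, with 9 positive and 8 negative, against 0.031 over all genes, of which 58.9% were positive. The 95% interval lay within 1 log2 unit of 0, that is within a 2-fold change either way, for 11 of the 17 members and for 94.3% of all genes. It reached beyond that for Chrna3, Hrh1, Htr2c, Htr7, Oprk1 and Ptger3.

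Ptger3 had the lowest p of the members in adults, at rank 31 among all genes. Its values of 5.38, 4.96 and 4.73 in adult mutants all lay below the 5.91, 5.92 and 5.92 of adult wild types. The log2 difference was -0.89 (SE 0.22, 95% interval -1.38 to -0.41, adjusted p = 0.67). Every mutant array was lower than every wild-type array for 1 of the 17 members, this one, and for 2.66% of all genes. Over 24 alternatives the difference ran from -1.07 to -0.75 with no call. The next lower members by p were Chrnb2, at 7.67, 7.60 and 7.43 in adult mutants, against 7.68, 7.47 and 7.83 in adult wild types (-0.09, 95% interval -0.39 to 0.20), and Chrna4, at 4.01, 4.12 and 5.31 in adult mutants, against 4.61, 4.48 and 4.79 in adult wild types (-0.15, adjusted p = 1.0). Both overlapped, and the sign of Chrna4 turned without adult mutant 1 (0.09) or 2 (0.03).

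Hrh3, Hrh1 and Oprk1 were the members with the lowest p in the other direction, and none passed the test. Hrh3 had 8.15, 7.38 and 7.32 in adult mutants, against 7.09, 6.85 and 7.15 in adult wild types (log2 difference 0.59, SE 0.19, adjusted p = 0.98). The groups did not overlap, which held for 1 of 17 members in this direction and for 6.73% of all genes. Oprk1 had 6.01, 5.44 and 4.54 in adult mutants, against 3.66, 5.09 and 4.21 in adult wild types (1.01, 95% interval 0.19 to 1.83, adjusted p = 1.0), with overlap. Its second probe set, below the filter, differed by 0.70 in the same direction. Hrh1 had 4.55, 5.22 and 4.85 in adult mutants, against 4.68, 4.29 and 4.00 in adult wild types (0.56, adjusted p = 1.0). Mutant 1, the array with the largest actin difference, was the highest for Hrh3 and Oprk1. Without it their differences were 0.32 and 0.67. Mutant 2, with the next largest actin difference (1.47), was the highest for Hrh1, whose difference was 0.38 without mutant 2. The part of RNA quality was not tested.

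The other adult differences were 0.49 for Htr7, 0.48 for Htr2c, 0.26 for Htr1a, 0.14 for Drd1, 0.09 for Htr1b and 0.08 for Adra2c. Those of Chrm1, Cnr1, Oprl1, Chrna7 and Chrna3 lay between -0.05 and 0.00. For Htr2c the mutant range of 6.77 to 7.59 overlapped the wild-type range of 6.19 to 7.51. Adult mutant 3, where choroid plexus markers were high (Ttr at 15.16, with the remaining adults at 6.78 to 9.18), had an Htr2c value of 7.27, within the range of the other adults. For Drd1, the second probe set had the opposite sign (-0.16).

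**Figure D4:**
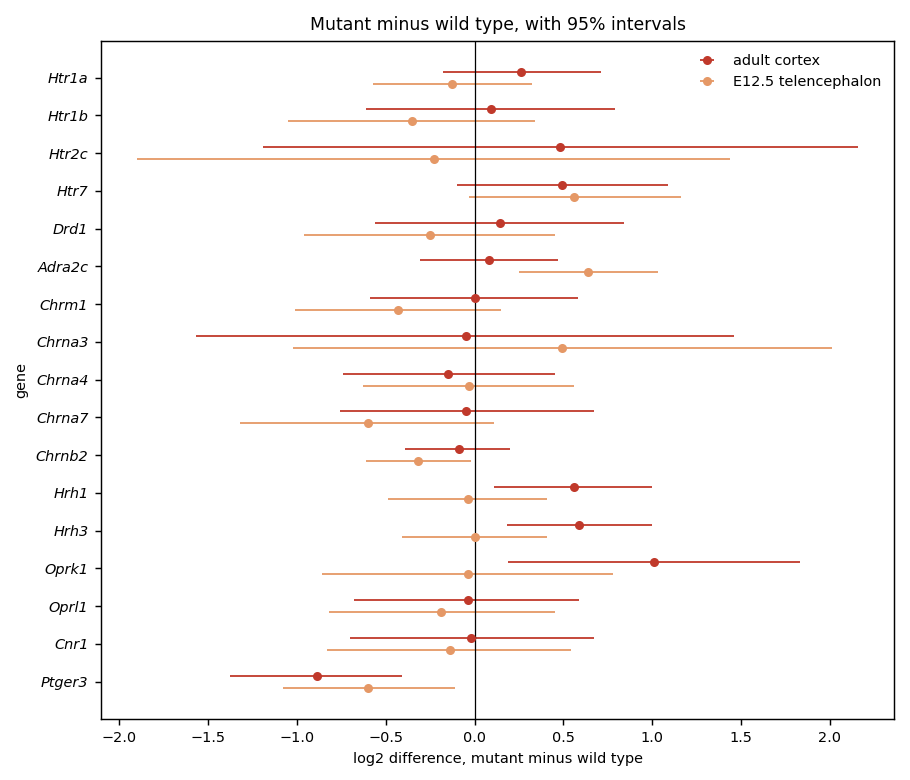
Log2 difference between mutants and wild types (x axis) for each member (y axis), in adult cortex and in E12.5 telencephalon, with 95% intervals from limma (n = 3 arrays a group). The intervals of Ptger3 lie below 0 at both stages before adjustment, and no member passed after it.

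In the E12.5 telencephalon, too, 0 of 17 members were called by limma, against 0.0349% of all genes. At an unadjusted p under 0.05 there were 3 members (Adra2c, Ptger3 and Chrnb2), against 4.51% of all genes. The median log2 difference was -0.14, with 4 members positive and 13 negative, against -0.012 over all genes, of which 46.1% were positive. It was -0.025 with array weights, -0.029 without the first cross and 0 over all 51 members with no filter. For 9 of the 17 members the 95% interval lay within 1 log2 unit of 0, against 91.9% of all genes.

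Adra2c had 4.76, 4.95 and 4.40 in embryonic mutants, against 3.71, 4.28 and 4.21 in embryonic wild types. Every mutant array lay above every wild-type array, as for 1 of 17 members and 3.23% of all genes, and the difference was 0.64 (SE 0.18, 95% interval 0.25 to 1.03, adjusted p = 0.56). Another Adra2c probe set, at most 3.21 and so below the filter, had the opposite sign in embryos (-0.15) and gave 0.33 in adults. The direction thus rests on 1 probe set. In adults, where Adra2c had 5.86, 5.51 and 5.51 in mutants, against 5.53, 5.51 and 5.59 in wild types, the groups overlapped. Htr7 had 4.18, 4.46 and 3.69 in embryonic mutants, against 3.70, 3.66 and 3.29 in embryonic wild types (0.56, 95% interval -0.03 to 1.16). Mutant 3 lay within the wild-type range, and the values straddle the filter. In adults Htr7 had 6.87, 6.69 and 5.93 in mutants, against 6.35, 5.76 and 5.90 in wild types. Chrna3 differed by 0.49 with a spread over 2 log2 units within each group, and without embryonic wild type 2 by -0.10.

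Ptger3 had a negative difference in embryos as well, where its values are all below the filter, where differences are compressed. It had 2.47, 2.53 and 3.30 in embryonic mutants, against 3.27, 3.27 and 3.54 in embryonic wild types (-0.60, SE 0.22, 95% interval -1.08 to -0.11, adjusted p = 0.89). Mutant 3 lay within the wild-type range. Ptger3 was the 1 member with an unadjusted p under 0.05 in both the adult and the embryonic comparison, and the share of all genes with this was not counted. The comparisons share no array, but they share the estimate of the spread. That estimate pools SDs of 0.33 in adult mutants, 0 in adult wild types, 0.46 in embryonic mutants and 0.15 in embryonic wild types. Its second probe set lay at 2.19 on all arrays, so the direction rests on 1 probe set.

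Nicotinic subunits made up the other lower members by p. Chrnb2 had 6.17, 6.29 and 6.25 in embryonic mutants, against 6.30, 6.59 and 6.75 in embryonic wild types (-0.32, SE 0.13, adjusted p = 1.0). The groups did not overlap, though mutant 2 at 6.29 lay next to wild type 1 at 6.30, as for 1 of 17 members in this direction and 5.06% of all genes. Chrna7 had 4.75, 5.47 and 5.10 in embryonic mutants, against 4.95, 6.17 and 6.0 in embryonic wild types (-0.60, 95% interval -1.32 to 0.11). The groups overlapped, and the difference was -0.37 without wild type 2 and -0.98 without wild type 1. In adults Chrna7 had 7.91, 8.43 and 7.52 in mutants, against 8.13, 8.08 and 7.77 in wild types. Chrm1 differed by -0.43, with mutant 2 at 2.98 and the other embryos between 4.16 and 4.36. Hrh3, Hrh1, Oprk1 and Chrna4 differed by -0.04 to 0.00. For Htr1b, Drd1, Htr2c, Oprl1, Cnr1 and Htr1a the differences lay between -0.35 and -0.13, and all overlapped.

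Whether the mutant effect differed between stages was tested itself, and 0 members passed, as did 0% of all genes. An unadjusted p under 0.05 was found for 2 members, against 5.5% of all genes. These were Hrh3, with an adult effect of 0.59 and an embryonic one of 0.00 (difference 0.58, 95% interval 0.01 to 1.16), and Adra2c, with effects of 0.08 and 0.64 (-0.56, -1.11 to 0.00), and adjusted p was 0.90 for both. The Hrh3 difference was 0.32 without adult mutant 1, the array with the largest actin difference, and that of Adra2c was -0.36 without the first cross. Another Adra2c probe set, below the filter, had the opposite sign (0.47). Hrh1 (0.60) and Ptger3 (-0.30, 95% interval -0.98 to 0.38) were next by p in their directions, and the Ptger3 difference was -0.03 without embryonic mutant 3, -0.15 without adult mutant 3 and -0.48 without adult mutant 1. The interval lay within 1 log2 unit for 4 of the 17 members, against 78.4% of all genes, and for the remaining members a 2-fold difference lay inside the interval.

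Some members separated the embryos by cross, in counts near the shares of all genes, so this is not particular to the receptors. Both embryos of the first cross lay above all 4 of the second for 3 of 17 members (Chrna4, Drd1 and Oprl1), against 11.6% of all genes, and below all 4 for 4 members (Chrna7, Cnr1, Hrh1 and Htr2c), against 16.3%. Chrna4, where the first-cross mutant had 3.52 and the wild type 3.56 and the second cross 3.42 to 3.52, separates only beyond 2 decimals, and its values, like those of Hrh1, lie below the filter. Htr2c had 2.19 in the mutant and 3.29 in the wild type of the first cross. In the second cross it had 4.40 and 5.72 in mutants and 5.0 and 4.70 in wild types. Ttr, the abundant transcript of choroid plexus, was at 10.78 in the mutant and 10.78 in the wild type of the first cross and 13.53 to 14.06 in the second. The choroid plexus and hem markers averaged 5.15 and 5.56 in the first cross and 6.15 to 7.51 in the second. Not all of them separated the crosses: Folr1 (4.63 and 4.30 in the first, 3.83 to 5.32 in the second), Clic6 (5.25 and 6.29, and 5.76 to 7.09) and Otx2 (4.42 and 6.03, and 3.07 to 6.31) overlapped.

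Oprl1 and Cnr1 went in opposite directions across the crosses. Oprl1 had 7.05 in the mutant and 6.87 in the wild type of the first cross, and 5.70 to 6.49 in the second, and its second probe set past the filter had 5.40 and 5.82 in the first cross and 4.48 to 5.20 in the second. Cnr1 had 10.98 and 10.83 in the first cross and 11.31 to 11.96 in the second. Markers of ventral telencephalon (3 of 8 past the filter) averaged 7.59 in the mutant and 8.24 in the wild type of the first cross, and 3.31 to 5.40 in the second, with Dlx2 at 8.43 and 9.04 against 3.20 to 5.80. The cortical neuron gene Neurod6 stood at 10.60 and 10.20 against 11.92 to 12.58. The cortical excitatory neuron markers as a list (6 of 7 past the filter) averaged 7.40 and 7.46 against 7.83 to 7.95. Tbr1 of that list varied little, with an SD of 0.06 in embryonic mutants and 0.08 in embryonic wild types, which each hold both crosses. The part of tissue makeup in these receptor values was not tested. As each genotype had 1 embryo of the first cross, the means of both genotypes hold it. The first-cross mutant is also the array whose name ends differently from those of the other embryos, and the part of this was not tested.

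**Figure D5:**
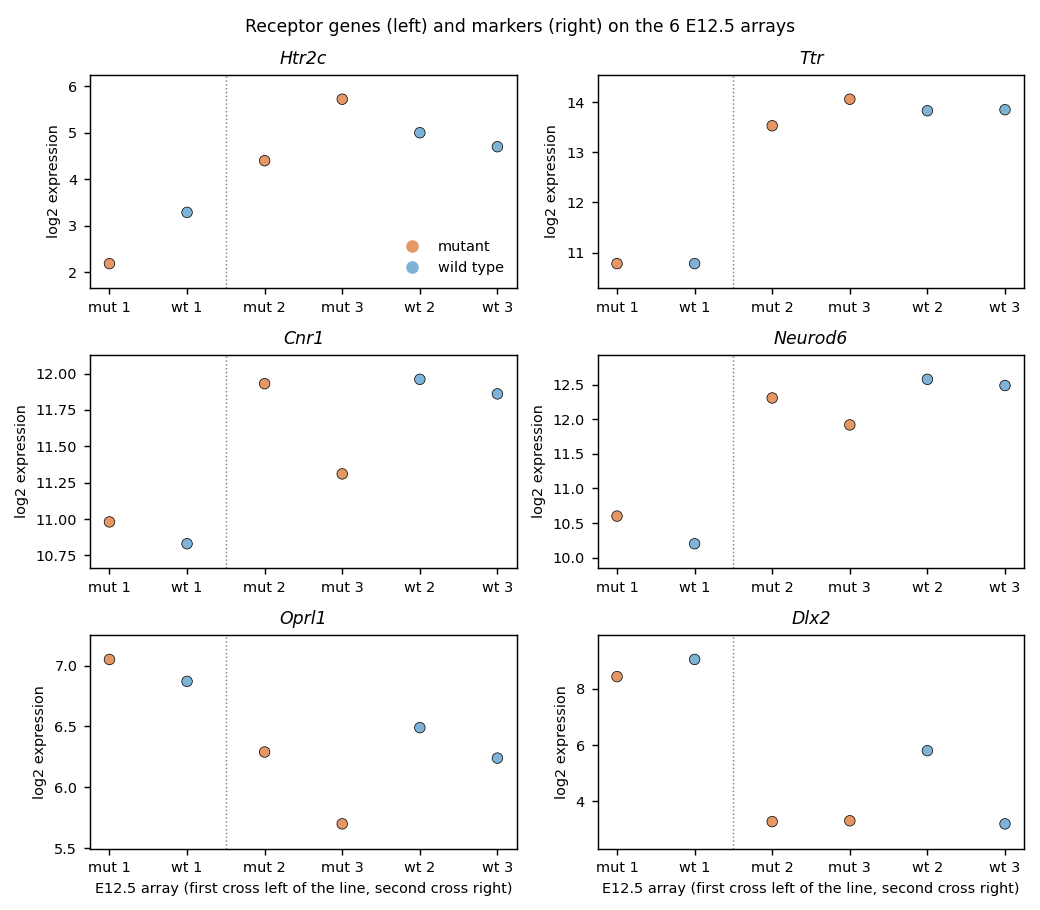
Log2 expression (y axes, scaled to each gene) of 3 receptor genes (left) and 3 marker genes (right) on the 6 E12.5 arrays (x axis), with the first cross left of the dotted line and mutants before wild types within each cross. Htr2c and Ttr are both lowest in the first cross, as are Cnr1 and Neurod6, and Oprl1 and Dlx2 are both highest there.

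Genes that make, move or break down the transmitters, and genes that carry the receptors' signal, were counted beside the receptors. Of 42 genes of transmitter synthesis, transport and breakdown 23 passed the filter. In mutants 14 rose and 4 fell in adults, against 39.5% and 42.2% of all genes, and in wild types 13 rose and 3 fell, against 38.4% and 43%. The median log2 difference of the 23 was 0.97 in mutants and 0.76 in wild types, against -0.054 and -0.082 over all genes. As for the receptors, the stage counts and medians of this list and of those below are partly fixed by the filter. They support nothing by themselves and were not counted without it. Those with the lowest p were Maob, which degrades monoamines (5.15 in mutants and 5.07 in wild types), and Mgll, which degrades an endocannabinoid (7.54 and 7.38). In embryonic mutants and wild types both averaged below a log2 value of 4 (Maob 2.35 and 2.29, Mgll 3.56 and 3.63). Between mutants and wild types 0 of the 23 were called by limma in adults (0 with an unadjusted p under 0.05) and 0 in embryos (2 at an unadjusted p under 0.05, Adk at 0.36 and Maoa at 0.27). In adults those with the lowest p were Slc29a2 (0.18) and Slc18a2. Slc18a2, the vesicular monoamine transporter, differed by -0.97 in adult mutants (5.76, against 6.73 in adult wild types, adjusted p = 1.0). Its SD was 1.56 in adult mutants and 0.25 in adult wild types.

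Of 32 transducer genes 29 passed the filter, of which 23 rose and 3 fell in adults in both genotypes, against 39.5% and 42.2% of all genes in mutants and 38.4% and 43% in wild types. Their median difference was 2.66 in mutants and 2.69 in wild types. The adenylyl cyclase gene Adcy1 rose by 8.05 in mutants and by 7.97 in wild types, and Gnal, the Gs-like protein that couples Drd1 in the striatum, by 5.70 and 5.64. Between mutants and wild types 0 were called at either stage (0 in adults and 1 in embryos at an unadjusted p under 0.05), and Prkar1b, a regulatory subunit of protein kinase A, had the lowest embryonic p (5.40 in mutants and 6.30 in wild types, log2 difference -0.91, adjusted p = 0.11). Of 26 genes of desensitisation and assembly 23 passed, of which 17 rose and 4 fell in both genotypes, with the same shares of all genes and median differences of 2.76 in mutants and 2.82 in wild types. Rgs4 and Rgs7, which speed the switching-off of G proteins, rose by 9.09 and 8.60 in mutants and by 9.43 and 8.79 in wild types. In embryonic mutants and wild types Gnal (3.78 and 3.78), Rgs4 (2.95 and 2.70) and Rgs7 (2.68 and 2.60) averaged below the filter. Again 0 were called between mutants and wild types (0 in adults and 1 in embryos unadjusted). Ric3, a chaperone for nicotinic receptors, differed by -0.81 in embryonic mutants (4.92, against 5.73 in embryonic wild types), and Tmem35a, another such chaperone, by -0.31, both with an adjusted p of 1.0.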

How the data were processed

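Expression was measured on 12 Affymetrix 3 prime arrays, 3 in each of 4 groups. The authors deposited log2 expression values per probe set. Per the submitters' processing notes they used GCRMA, with no version or setting stated there. Per the labels' protocols, RNA went through 2-cycle amplification with biotin labelling. Arrays hold no counts, so their number limits the precision.

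The deposited values were not rescaled. Names came from the array annotation, where 34945 probe sets had 1 symbol, updated by gene ID where it matched RefSeq of GRCm38.p6, and control probe sets were left out. Genes with a log2 value over 4 on at least 3 arrays were kept, and the probe set of highest mean stood for the gene. All 11449 genes were fitted with limma 3.58.1 in R 4.3.3 (lmFit, eBayes, 4 group means, 8 residual degrees of freedom, tested on simulated data), with Benjamini-Hochberg adjustment over all genes, and called under 0.05. SE and 95% intervals are the moderated ones. Members, gene lists, tests and named genes were chosen with earlier results of these data known. Named were the 3 members of lowest p each way in each mutant contrast, 2 for their difference, and up to 5 of greatest change each way between wild-type stages. Marker lists were read as means per array.

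Same-cross embryos deviated from their group means together (r = 0.51 in the first cross, 0.14 to 0.25 in the second), and the pairing comes from the parents in the labels. Adult age pairs gave 0.19, -0.01 and 0.27. Both entered as a block in an alternative only. Protein sequences were not used here.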

Additional observations from a re-analysis of the deposited data

How the results depend on the processing

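The counts of called members for the mutant comparisons and their difference stayed at 0 under all 24 alternatives in adults, 24 in embryos and 23 for the difference. These varied the filter, the probe sets, the scaling, the samples fitted, the variance model, array weights, the first cross and each array in turn. With the replicate block (age pair and parental cross) 0 members were called for the mutant comparisons and their difference. Each block lies within a stage, so the stage calls could not be fitted with it. Between stages, the call of Chrna3 in wild types, the 1 lower member, was lost (0 members) without a filter, with array weights and without the first cross, and between 0 and 1 members were lower with 1 array left out. In mutants it was lost (0) with array weights. The cause was not tested. Counts of higher members stayed within 1.5 times, with 17 in wild types and 18 in mutants without a filter. Medians over the members moved in 24 comparisons: with no filter the stage medians were 0.036 in mutants and 0.067 in wild types, against 2.39 and 2.17, since the 34 further members lie near the floor, and the median difference between stages in the mutant effect, 0.39, ran from 0 with no filter (0.15 without adult wild type 2) to 0.41. The sign turned among members not past the test: with 1 array left out, Chrna4 in adults ran from -0.56 to 0.09 and Chrna3 in embryos from -0.10 to 1.33. Centring arrays on their medians moved the median of all genes by under 0.1. Members near the floor of 2.19 have compressed differences, and intervals of several members reach past a 2-fold effect.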

Other observations

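Without the filter on low values 2 further members were called higher in adults than at E12.5 in wild types and 3 in mutants. Htr5a, a Gi-coupled serotonin receptor gene of the forebrain, averaged 3.43 in adult mutants and 2.19 in embryonic mutants, and 3.56 in adult wild types and 2.19 in embryonic wild types (adjusted p = 1.69e-05 in mutants and 8.32e-06 in wild types, limma over 18193 genes). The others were called in 1 genotype each and reached at most 3.36: Chrna6 in wild types (log2 difference 0.55), and Adra1b (0.30) and Ptger4 (0.27) in mutants. No member was called for a mutant effect, or for its difference between stages, without the filter. In adults Chrna6 averaged 2.19 in mutants and 2.74 in wild types.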
